A study of Caenorhabditis elegans
Pristionchus pacificus with 6 samples.

Results

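A set of 68 genes stood at 0.332 of its control level or lower in intestines of the C. elegans strain CDK-2gut(-), labelled low ploidy by the submitters. The genes were chosen by their own read counts in the 6 libraries, so their differences between the strains are a description and carry no test. A gene was taken when its mean in the control libraries was at least 10 CPM (counts scaled to a total of 1000000 C. elegans counts per library) and at least 3 times the mean in CDK-2gut(-) libraries, and when every control library lay above every CDK-2gut(-) library. The rule was applied to 41634 C. elegans genes, those with later-numbered identifiers and outside a short list of excluded ones. Of the 41634, 1809 passed the level threshold and 68 met the whole rule (3.76%). Another 17 genes met the same thresholds but carried identifiers outside the rule and are not described here.

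RNA was sequenced from dissected anterior intestines of adult hermaphrodites in 2 groups of 3 libraries, numbered 1 to 3 in each. CDK-2gut(-) animals carried the tagged kinase gene cdk-2::ZF::GFP, the mutation zif-1(gk117) and a transgene, asp-1p::vhhGFP4::zif-1, in which the promoter of the aspartyl protease gene asp-1 drives a fusion of ZIF-1 with a nanobody that binds GFP. Control animals had the same tagged cdk-2 and the same zif-1 mutation, but no such transgene. C. elegans was dissected 72 hours after egg laying at 20 °C, intestines were pooled as lysates, and an equal amount of intestine lysate of another nematode, Pristionchus pacificus, dissected at 96 hours, went into each. The labels name neither separate cultures nor the number of intestines, so the spread given below is between libraries and may be technical.

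The intestine of C. elegans is the animal's organ of digestion, fat storage, detoxification, innate defence and yolk synthesis. Its cell divisions are complete in the embryo. In larvae many of its nuclei divide without cell division, and the cells then copy their genomes further in endocycles, so that adult intestinal nuclei are polyploid. CDK-2 is a cyclin-dependent kinase that drives entry into DNA synthesis, and ZIF-1 is an adaptor that brings zinc-finger-tagged proteins to a ubiquitin ligase for degradation. Ploidy itself is not recorded in the counts. The strains differ by the transgene, and effects of the transgene and of ploidy were not tested separately.

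The deposited table gives WormBase gene identifiers and no symbols, and 0 of its 73268 identifiers are listed in the reference gene table that was used. The 68 genes are therefore given by identifier, with no name, function or chromosome. For the same reason the label of anterior intestine was not checked against intestinal markers, RNA of other tissues was not measured, and the level of cdk-2 was not analysed here. Fewer cells of a type and less RNA per cell cannot be told apart in such bulk libraries. C. elegans counts were 11273570 to 15874554 in CDK-2gut(-) libraries and 9432973 to 10665065 in control libraries. P. pacificus counts were 2726310 to 4060591 in CDK-2gut(-) libraries and 1761793 to 3618153 in control libraries. Which rows are P. pacificus is not stated in the table and was taken from the rule, as described under the processing.

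Together the 68 genes took a small and even share of the CDK-2gut(-) libraries. They held 0.374%, 0.344% and 0.371% of C. elegans counts in CDK-2gut(-) replicates 1, 2 and 3, against 1.49%, 1.55% and 2.07% in control replicates 1, 2 and 3. The 3 CDK-2gut(-) libraries lay close together, while control replicate 3 stood above the other controls. The mean share was 0.363% ± 0.0162 in CDK-2gut(-) and 1.71% ± 0.318 in control (SD, n = 3 each), a ratio of 0.213. Counting error was far smaller than these spreads, with a 95% Wilson interval of 0.341% to 0.348% in CDK-2gut(-) replicate 2 and 1.54% to 1.56% in control replicate 2. Such intervals cover counting error only.

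Set against plain counts of the spike-in, the same genes gave a similar ratio but another order of libraries. There were 19.4, 15.9 and 10.3 counts of the 68 genes per 1000 P. pacificus counts in CDK-2gut(-) replicates 1, 2 and 3, and 80.0, 70.0 and 57.5 in control replicates 1, 2 and 3. Control replicate 3, the highest control by share of C. elegans counts, was thus the lowest control by plain P. pacificus count. The ratio of all C. elegans to P. pacificus counts was also lowest in replicate 3, at 2.78 in both CDK-2gut(-) and control, against 5.19 and 4.61 in the other CDK-2gut(-) libraries and 5.35 and 4.51 in the other controls. The means were 15.2 ± 4.58 counts per 1000 in CDK-2gut(-) and 69.2 ± 11.3 in control (SD, n = 3 each), a ratio of 0.220. The spike-in-scaled fit below used P. pacificus library sizes adjusted by trimmed mean of M-values (TMM) instead. For control replicates 1, 2 and 3 these were 2006330, 2683880 and 2954500, against plain totals of 1761793, 2363397 and 3618153. The adjustment lowered replicate 3 and raised the others, so the order of controls given here need not hold on the fitted scale.

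**Figure D1:**
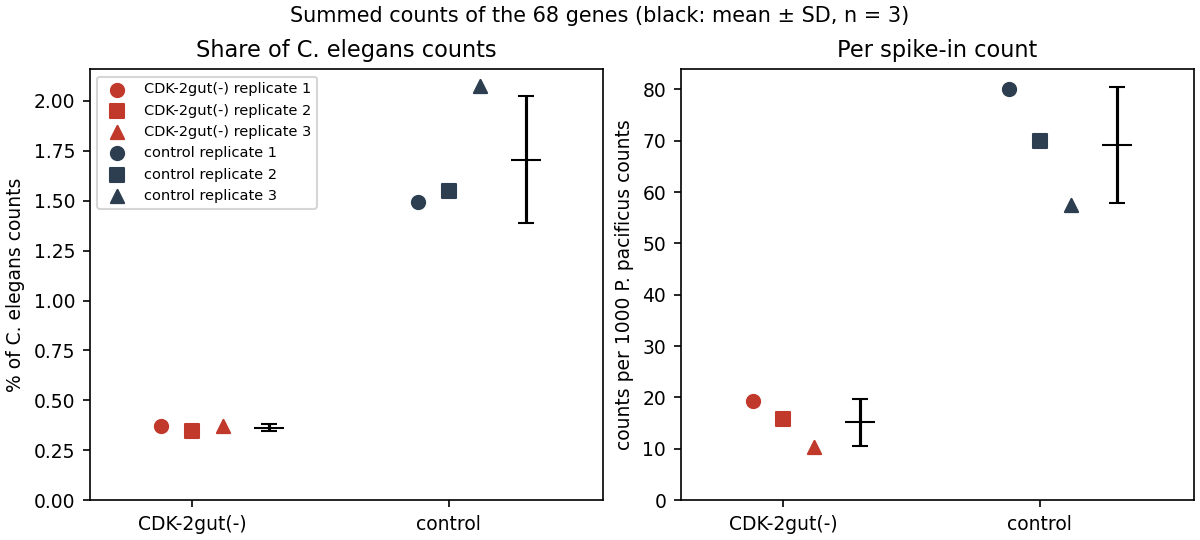
Summed counts of the 68 genes in each library, as a percentage of C. elegans counts (left) and per 1000 plain, unadjusted P. pacificus counts (right). Points are libraries and black bars are mean ± SD (n = 3). CDK-2gut(-) libraries sit at 0.344% to 0.374% and controls at 1.49% to 2.07%, and control replicate 3 is highest on the left and lowest on the right.

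The set ran over a wide range of levels. Means in CDK-2gut(-) went from 0.327 to 1337 CPM, with a median of 8.89 CPM, and means in control from 10.02 to 5676 CPM, with a median of 51.2 CPM. Ranked by mean CPM, which is not corrected for gene length, 1 of the 68 was among the first 100 C. elegans genes in CDK-2gut(-), and 4 did so in control. Within the first 500 ranks there were 4 in CDK-2gut(-) and 24 in control. The ratio of means, CDK-2gut(-) over control, had a median of 0.206 and ran from 0.0277 to 0.332. It lay below 0.1 for 13 genes, from 0.1 to below 0.2 for 18, and at 0.2 or above for 37. Over all 1809 genes past the level threshold the median ratio was 1.19.

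**Figure D2:**
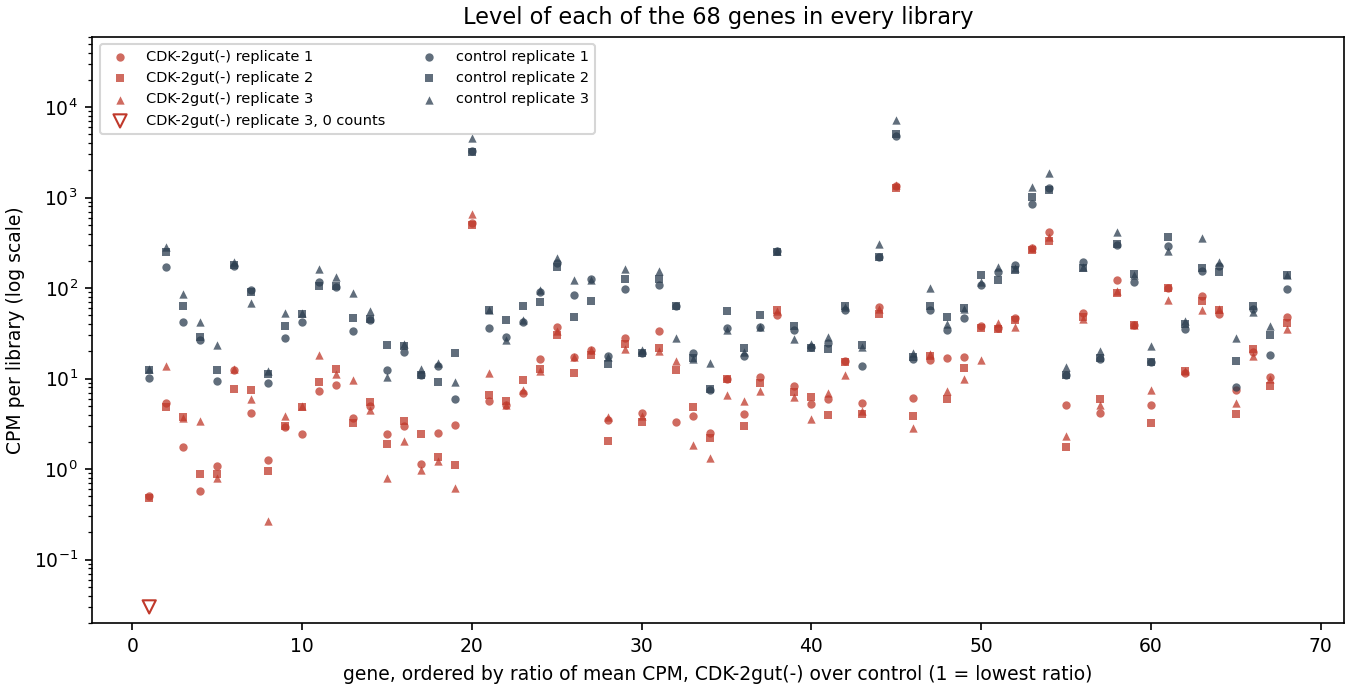
CPM of each of the 68 genes in every library, on a log axis, with genes ordered along the horizontal axis by the ratio of means (CDK-2gut(-) over control) from lowest to highest. Symbols give the replicate number and the open triangle marks 0 counts. For each gene the 3 CDK-2gut(-) points lie below the 3 control points, as the rule required, and the gap narrows towards the right.

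The lowest ratios were not in the genes with the most counts. Among the 22 genes with a control mean from 10 to below 30 CPM the median ratio was 0.202, among the 22 from 30 to below 100 CPM it was 0.172, and among the 18 from 100 to below 300 CPM it was 0.223. In the 6 genes at 300 CPM or more it was 0.256, with no ratio under 0.152. These groups made up 2.28%, 3.98%, 10.5% and 4.96% of the genes past the threshold in their range of control levels.

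**Figure D3:**
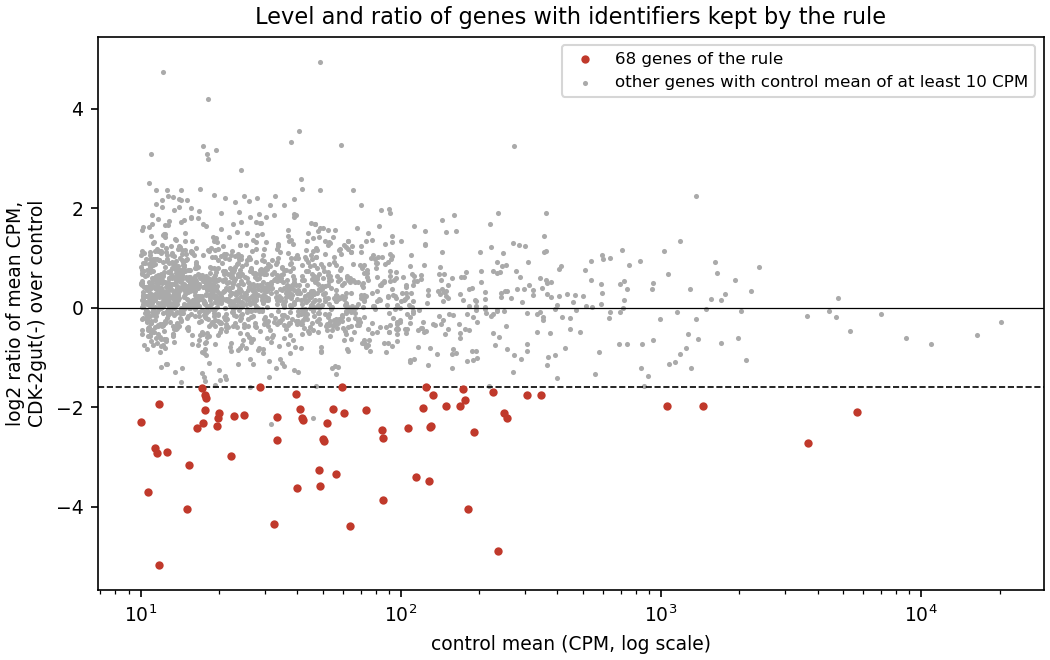
Control mean (CPM, log axis) and log2 ratio of mean CPM, CDK-2gut(-) over control, for the 68 genes (red) and the other genes with a control mean of at least 10 CPM (grey). The dashed line is the 3-fold threshold. The lowest ratios belong to genes with control means under 300 CPM, and genes above 300 CPM stay at ratios of 0.152 or more.

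WBGene00012608 and WBGene00016943 had the most counts of the set and took about as many as the other 66 together, at 52.2% ± 2.24 of its counts in CDK-2gut(-) and 54.7% ± 1.70 in control (SD, n = 3 each). WBGene00012608 had 1352, 1290 and 1368 CPM in CDK-2gut(-) replicates 1, 2 and 3, against 4857, 5036 and 7135 CPM in control replicates 1, 2 and 3. Its CDK-2gut(-) values differed little, and the lowest control was 3.55 times the highest of them. Its rank by CPM among C. elegans genes was 62 in CDK-2gut(-) and 17 in control. WBGene00016943 had 523, 493 and 658 CPM in CDK-2gut(-), against 3254, 3211 and 4575 CPM in control. Replicate 3 was its highest library in both strains, and its ratio of 0.152 was the lowest among the 6 genes with the highest control CPM. Without both genes the other 66 still had a ratio of 0.225 in their share of counts, at 0.174% ± 0.0110 in CDK-2gut(-) and 0.770% ± 0.115 in control (SD, n = 3 each).

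The next 4 by control level had ratios between 0.256 and 0.298. WBGene00011487 had 413, 328 and 371 CPM in CDK-2gut(-) replicates 1, 2 and 3, against 1273, 1214 and 1857 CPM in control replicates 1, 2 and 3. WBGene00021872 had 275, 264 and 274 CPM in CDK-2gut(-), against 843, 1004 and 1326 CPM in control. In both, control replicate 3 was the highest library. WBGene00019564 had 123, 89.1 and 93.05 CPM in CDK-2gut(-), against 302, 311 and 420 CPM in control. WBGene00009488 departed from this order, with control replicate 3 its lowest control: it had 99.7, 100.6 and 74.0 CPM in CDK-2gut(-), against 295, 369 and 257 CPM in control.

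In the composition fit, edgeR's model of all C. elegans genes scaled by trimmed mean of M-values (TMM), the log2 folds of these 6 genes ran from -3.14 ± 0.29 (SE) for WBGene00016943 to -2.15 ± 0.16 (SE) for WBGene00009488. Scaled to the spike-in, they ran from -2.67 ± 0.15 (SE) for WBGene00016943 to -1.67 ± 0.23 (SE) for WBGene00019564.

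The 6 genes with the lowest ratios stood at between 0.0277 and 0.0605 of control. WBGene00021491 had the lowest ratio, with 0.504, 0.477 and 0 CPM in CDK-2gut(-) replicates 1, 2 and 3, against 10.2, 12.6 and 12.6 CPM in control replicates 1, 2 and 3. These values rest on 8, 6 and 0 counts in CDK-2gut(-) and on 96, 134 and 127 counts in control. It was the 1 gene of the 68 with 0 counts in any library, and its log2 fold in the composition fit was -5.51 ± 0.62 (SE).

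WBGene00008829 had 5.42, 4.85 and 13.7 CPM in CDK-2gut(-), against 172, 251 and 284 CPM in control, a ratio of 0.0340. CDK-2gut(-) replicate 3 was more than 2 times as high as the other CDK-2gut(-) libraries but still 12.5 times below the lowest control. In rank by CPM the gene stood at 3898 in CDK-2gut(-) and at 227 in control, and its log2 fold was -5.26 ± 0.58 (SE) in the composition fit. WBGene00010706 had 1.76, 3.74 and 3.64 CPM in CDK-2gut(-), against 42.4, 63.3 and 85.0 CPM in control, and WBGene00044514 had 0.567, 0.875 and 3.37 CPM in CDK-2gut(-), against 26.8, 29.0 and 42.1 CPM in control. For both genes control replicate 3 was the highest library, and CDK-2gut(-) replicate 1 the lowest.

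WBGene00011673 had 1.07, 0.875 and 0.798 CPM in CDK-2gut(-), against 9.43, 12.6 and 23.4 CPM in control. Its CDK-2gut(-) values were even and its control values spread over more than 2-fold. WBGene00012634 had 12.4, 7.71 and 12.9 CPM in CDK-2gut(-) against 174, 178 and 193 CPM in control, and a ratio of 0.0605. Relative to its mean it varied less between control than between CDK-2gut(-) libraries, with coefficients of variation of 5.70% and 25.9%. Its log2 fold was -4.46 ± 0.27 (SE) in the composition fit and -3.997 ± 0.269 (SE) with the spike-in.

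A run of 6 consecutive rows of the deposited table, in a window of 26, held 5 of the 68 genes. In row order they were WBGene00021236, WBGene00017500, WBGene00017501, WBGene00017490 and WBGene00017499, with WBGene00017498 between the third and the fourth. WBGene00021236 had 10.5, 8.99 and 7.36 CPM in CDK-2gut(-) replicates 1, 2 and 3, against 37.5, 50.6 and 36.8 CPM in control replicates 1, 2 and 3. WBGene00017500 had 5.17, 5.65 and 5.06 CPM in CDK-2gut(-), against 29.0, 44.4 and 26.6 CPM in control. In both, control replicate 2 was the highest library by a clear margin. WBGene00017501 had 2.46, 1.91 and 0.798 CPM in CDK-2gut(-), against 12.3, 23.4 and 10.5 CPM in control. WBGene00017490 had 6.93, 9.62 and 7.54 CPM in CDK-2gut(-), against 42.5, 62.8 and 44.8 CPM in control. These again peaked in control replicate 2. WBGene00017499 had 9.89, 9.94 and 6.65 CPM in CDK-2gut(-), against 35.8, 56.3 and 34.7 CPM in control.

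The 5 ratios lay between 0.112 and 0.215. WBGene00017498, the row between them, missed the level threshold alone: it had 0.504, 1.35 and 0.355 CPM in CDK-2gut(-), against 9.33, 9.47 and 6.67 CPM in control, a ratio of 0.0868. By CPM, all 6 genes were thus lowest in the CDK-2gut(-) libraries and highest in control replicate 2, whereas most of the 68 genes were highest in control replicate 3. The rows around them did not follow. In the 10 rows on either side, 17 of 20 genes had a control mean under 1 CPM. Of the other 3, WBGene00003705 stood at 16.1 ± 2.52 CPM in CDK-2gut(-) and 11.5 ± 6.30 CPM in control, WBGene00020850 at 13.0 ± 2.35 CPM in CDK-2gut(-) and 4.604 ± 1.49 CPM in control, and WBGene00017493 at 6.39 ± 0.604 CPM in CDK-2gut(-) and 1.92 ± 0.373 CPM in control (SD, n = 3 each). Whether row order follows the chromosomes is not stated. The use of strand in counting is not recorded either, so reads shared between overlapping neighbours cannot be told apart from reads of each gene, and reads that map to several near-identical genes were left out before deposit.

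**Figure D4:**
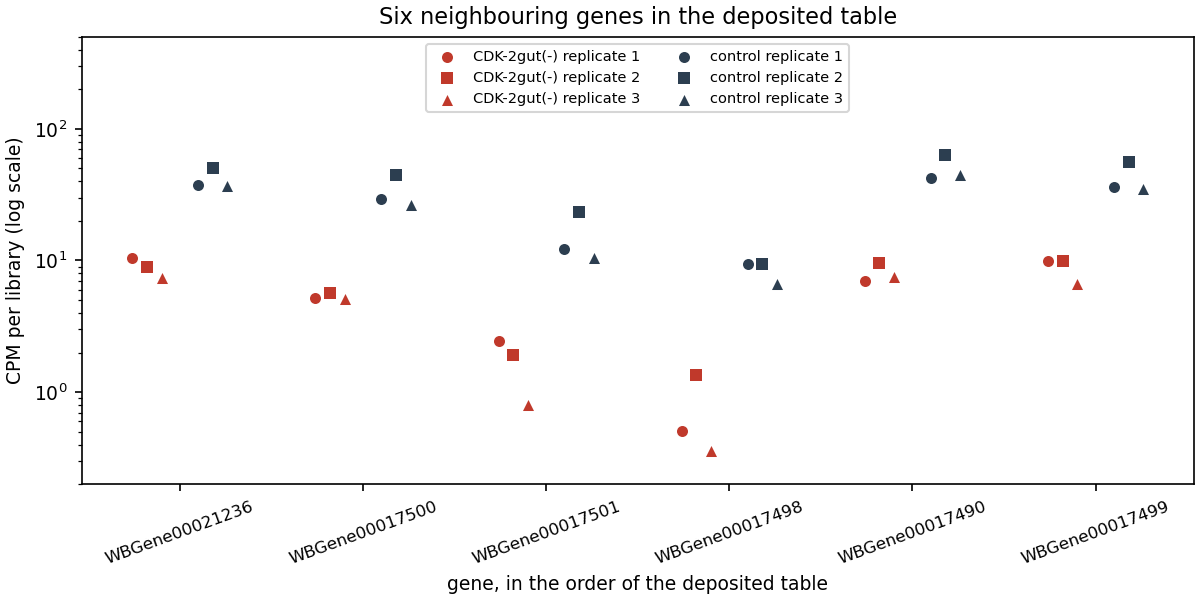
CPM in every library (log axis) for the 6 genes in consecutive rows of the deposited table, in row order. CDK-2gut(-) points are left of control points for each gene and symbols give the replicate number. Control replicate 2 is the highest library of all 6 genes, at 9.47 to 62.8 CPM, and the CDK-2gut(-) libraries stay at 10.5 CPM or less.

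In all, 11 of the 68 genes had another of the 68 within 5 rows. The same share was not measured for other sets of genes, so nothing is read from this count. The 3 further pairs described here were picked after their values were seen. WBGene00016942, in the row after WBGene00016943, had 5.98, 3.98 and 6.92 CPM in CDK-2gut(-) against 25.0, 21.5 and 28.6 CPM in control, with replicate 3 highest in both strains as in its neighbour. WBGene00011486, 4 rows before WBGene00011487, had 39.5, 38.6 and 39.5 CPM in CDK-2gut(-) against 118, 142 and 138 CPM in control. The pair WBGene00189956 and WBGene00021337 had ratios of 0.202 and 0.104, with control means of 10.02 and 48.4 CPM, and both were highest in control replicate 3.

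The order of the control libraries is given here by CPM and depends on that scale. Per 1000 plain P. pacificus counts, not adjusted by TMM, the summed genes were lowest in control replicate 3 (57.5, against 80.0 and 70.0 in replicates 1 and 2). By CPM, replicate 3 was the highest control for 45 of the 68 genes (66.2%), replicate 2 for 16 and replicate 1 for 7. Over all 1809 genes past the level threshold, replicate 3 was the highest control for 43.8%. Control replicate 3 stood at 1.19 times the mean of the other controls for the median gene of the set, and at 1.03 times for the median of the 1809 genes. It reached at least 1.5 times for 11 of the 68 genes (16.2%), against 7.52% of the 1809. Genes differed in this respect. WBGene00007097, singled out after its values were seen, was the furthest the other way, with 3.34, 12.5 and 15.5 CPM in CDK-2gut(-) replicates 1, 2 and 3 against 64.2, 63.2 and 28.2 CPM in control replicates 1, 2 and 3. With control replicate 3 left out, 61 of the 68 genes again met the rule, and 59 did so whichever single library was left out. The rule chose the genes in these same libraries, and leaving a library out cannot undo their separation, so this is no support.

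Within CDK-2gut(-) the highest library was replicate 1 for 34 genes, replicate 2 for 15 and replicate 3 for 19. The coefficient of variation between CDK-2gut(-) libraries had a median of 19.1% over the 68 genes and 11.6% over the 1809, and between control libraries 18.5% and 17.4%. The 68 genes were at far lower counts in CDK-2gut(-) than most of the 1809, and the share of counting error in their wider spread was not tested.

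The distance between the groups varied more than the ratio of means shows. The lowest control was at least 3 times the highest CDK-2gut(-) library for 44 genes and at least 2 times for 63. The median of this gap was 3.41. The remaining 5 genes, picked after their values were seen, were WBGene00011304, WBGene00007097, WBGene00008042, WBGene00050899 and WBGene00021412. In WBGene00050899 the groups nearly touched, with 7.43, 4.06 and 5.41 CPM in CDK-2gut(-) against 8.06, 15.5 and 28.3 CPM in control. The rule's separation of groups held for 291 of the 1809 genes (16.1%), of which the 68 are those that also passed the fold.

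At the edge of the fold threshold the values were continuous. Just inside were WBGene00008412, with a ratio of 0.332 (41.6 CPM in CDK-2gut(-) and 125 CPM in control), WBGene00021412 at 0.3304 (9.54 and 28.9 CPM in the same order) and WBGene00019327 at 0.3297 (19.6 and 59.3 CPM). Just outside were WBGene00009773 at 0.3334 (8.78 and 26.3 CPM), WBGene00015632 at 0.334 (15.7 and 47.0 CPM) and WBGene00015512 at 0.335 (72.8 and 217 CPM). Only 2 genes passed the level and the fold but not the separation, and both, picked after their values were seen, were uneven within each strain. WBGene00019540 had 23.6, 3.26 and 2.93 CPM in CDK-2gut(-) replicates 1, 2 and 3 against 37.3, 91.1 and 9.46 CPM in control replicates 1, 2 and 3. WBGene00013181 had 16.8, 0.954 and 1.06 CPM in CDK-2gut(-) against 38.7, 52.9 and 3.29 CPM in control. In both, CDK-2gut(-) replicate 1 lay above control replicate 3.

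Turned round, the same thresholds gave a larger set: 296 genes stood at least 3 times higher in CDK-2gut(-), of 2282 with a CDK-2gut(-) mean of at least 10 CPM (13.0%). Of the genes that met the whole rule in either direction, 18.7% were lower in CDK-2gut(-) and 81.3% higher. This split depended on the scale. With TMM-scaled library sizes 104 of 1957 genes past the level in control were lower, and 187 of 2087 past it in CDK-2gut(-) were higher. With P. pacificus counts as the scale 65 of 1902 were lower and 300 of 2383 higher. The split was thus 35.7% lower and 64.3% higher under TMM, and 17.8% and 82.2% per P. pacificus count. The 104 included each of the 68, and the 65 included 63 of them. The median ratio was 0.904 over the 1957 genes past the control level under TMM scaling. Per P. pacificus count it was 1.22 over the 1902 past it on that scale.

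Each of the 68 genes kept its direction on the other scales, which their choice at 3-fold or more in the same libraries largely fixed. Per P. pacificus count the ratio of means ran from 0.0312 to 0.378, with a median of 0.213, and for 4 genes the difference was under 3-fold on this scale. Every control remained above every CDK-2gut(-) library for 68 of 68, where 8.29% of the 1809 genes were so separated. The rule had already required this separation by CPM in the same libraries, so nothing is read from it. All 68 passed the filter on low counts that left 8309 genes for the fits, which is no support, since their control level alone sufficed. In the composition fit their log2 folds ran from -5.51 to -2.01, with a median of -2.66, beside a median of 0.10 over all 8309 genes. In the spike-in-scaled fit they ran from -4.97 to -1.46, with a median of -2.19, beside a median of 0.55. Standard errors had medians of 0.27 and 0.31 in these fits.

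At a Benjamini-Hochberg adjusted p under 0.05 over all genes, edgeR's quasi-likelihood test called 68 of the 68 lower in the composition fit, where 6.84% of all genes were called lower, and 68 of 68 in the spike-in-scaled fit, where 2.47% were. When replicate numbers entered the fit as a block, the spike-in-scaled count was 65, without WBGene00007097, WBGene00011304 and WBGene00050899, and the composition count was 67, without WBGene00007097. Of all 8309 genes, the block fits called 241 lower with the spike-in and 489 in composition. The same contrast chose the genes, so nothing is read from these counts. The composition calls of 63 genes and the spike-in calls of 59 were kept without each library in turn. The genes that lost a call most often were WBGene00007097, WBGene00050899 and WBGene00011304, which are among the 5 with the narrowest gap between groups.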

How the data were processed

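The authors deposited raw gene counts of 6 libraries in 1 table, made with STAR and featureCounts per the submitters' processing notes. Tool versions, genome builds, annotation and strand setting were not given in the sources used here, and per the table's name multi-mapping reads were dropped. Of 73268 rows, the last 26310 were taken as P. pacificus and the earlier ones as C. elegans. The table does not state this boundary, which was taken from the rule that chose the genes. The table lists genes without their lengths, so ranks of genes by CPM are not corrected for length.

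CPM were computed from each library's sum over C. elegans rows. All C. elegans genes kept by filterByExpr (8309) were fitted with edgeR 4.0.16 (R 4.3.3), robust quasi-likelihood, with TMM factors over C. elegans genes (composition) or with the P. pacificus total of a library multiplied by its TMM factor from 6645 genes of that species (spike-in). Standard errors were taken from the log2 fold and its F statistic. Alternatives were other scalings, DESeq2 1.42.0, thresholds, no filter, a replicate block and single libraries left out.

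The 68 genes and all lists were chosen with earlier results of these data known. Gene lists by symbol were not used, since identifiers could not be paired with symbols. Genes named are the 6 with the lowest ratio, the 6 with the highest control level, the 3 nearest the fold threshold on either side and rows where at least 3 of the genes lie within 10. Others are marked as picked later.

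Deviations from the group means of libraries numbered 1, 2 and 3 correlated at 0.57, 0.59 and 0.85 over P. pacificus genes and at 0.11, -0.046 and 0.20 over C. elegans genes. Over P. pacificus genes, unmatched libraries numbered 1 and 2 correlated as highly (0.57 for both combinations), so these profiles set number 3 apart and do not separate 1 from 2. Number 2 missed the 0.1 required of every pair over C. elegans genes, so numbers were not taken as pairs for the genes described.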

Additional observations from a re-analysis of the deposited data

How the results depend on the processing

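Of 58 alternatives, 0 reversed a direction, which is no support. Counts of genes have no direction to reverse, and the choice of genes largely fixes that of the share and the folds. The rule gave 114 genes at a 2-fold threshold and 104 with TMM-scaled library sizes, each including the 68. A lower threshold admits more genes by construction. Leaving out single libraries gave 67 to 77 genes and a difference in share of -1.45 to -1.16 percentage points (-1.34 with all). The composition median log2 fold then ran from -2.89 to -2.60 and the spike-in median from -2.43 to -2.08. Composition calls among the 68 genes were 64 to 67, where 290 to 739 of all 8309 genes were called lower. Spike-in calls were 59 to 68, beside 115 to 235 of the 8309. The composition median was -2.27 with plain C. elegans totals, in a fit that differed only in its library sizes. What set the TMM factors of the strains apart was not tested. With the replicate number as a block, 67 of the 68 genes were called in the composition fit (median -2.66) and 65 in the spike-in fit (median -2.20). Of all 8309 genes, these fits called 489 and 241 lower, in the same order. WBGene00007097 lost its call in both, WBGene00011304 and WBGene00050899 lost theirs in the spike-in fit, and no other call among the 68 changed under the block. Over C. elegans genes, CDK-2gut(-) replicate 3 correlated best with the control of its own number, and CDK-2gut(-) replicates 1 and 2 with controls of another number. DESeq2 called 68 of the 68 genes lower in composition, beside 819 of all 8309 genes. The main composition fit called 568 of the 8309 lower. The contrast tested by DESeq2 also chose the 68 genes, so nothing is read from its count. At fewer than 10 counts per library, as for WBGene00021491 in CDK-2gut(-), a ratio is limited by depth.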
